A study of Citrullus lanatus with 6 samples.

Results

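The expression table holds 23568 gene models, of which only the 1998 in the part of the study's list at hand could be searched for transposable elements. Among these 1998, the search found 35 gene models, called members here. They were picked by words in the description that the study attached to each gene in its list of salt-responsive genes: transpos, retroelement, reverse transcriptase, gag or polyprotein. Only identifiers and descriptions were taken from that list. The part of the list at hand holds 1998 gene models, all chosen by the study as higher in salt on these same libraries, so the members were selected on the measured difference between salt and control. That difference is therefore given below as a description, and no p is given for any member. Counts of members past the fit over all genes, and how calls changed with the processing, are printed for description only. Models of the same kind that did not change, or fell, are not analysed here.

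Of the 35 members, 28 carry an identifier of the Charleston Gray reference annotation (ClCG) and 7 are models that the authors added to it, with identifiers such as Novel01006. The 28 were found among 1848 reference models of the list. The 7 were found among 150 author-added models, of which 85 have no description and 65 have one.

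The RNA came from leaves of watermelon (Citrullus lanatus) cultivar Crimson Sweet. Control seedlings stood in water for 7 h and treated seedlings in 300 mM NaCl for as long, at 6 weeks of age, with 3 libraries per treatment that the labels attribute to independent plants. The title and the stress field of the treated libraries read drought-stressed, whereas their protocol field, the series and the paper name salt, and they are called salt here. Whole seedlings had been lifted from their medium and washed before they were placed in the tubes, and leaves were the only organ sequenced. Bulk leaf RNA does not separate a change in RNA per cell from a change in which cells gave RNA.

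Retrotransposons copy themselves through RNA. Those with long terminal repeats encode gag, the capsid protein that packages the RNA, and pol, a polyprotein cut into protease, integrase, reverse transcriptase and ribonuclease H; in plants they fall mainly into the Ty1-copia and Ty3-gypsy superfamilies, named after yeast and fly elements. DNA transposons such as PIF, hAT and Mutator instead move as DNA, cut and rejoined by a transposase. Most copies are kept silent in plant leaves by DNA methylation and small RNAs, stress can release some of them, as with the heat-activated copia element ONSEN of Arabidopsis, and some transposase genes have become ordinary host genes. By description the members comprised 5 DNA transposons, 7 Ty1-copia type, 2 Ty3-gypsy type, 7 gag or polyprotein models with no superfamily given, 6 reverse transcriptases and 8 unclassified retrotransposon proteins.

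Values are FPKM as deposited, the fragments of a gene scaled by its length and by the total fragments of the library. Whole fragments could be worked back from them, and the libraries held 18838185 to 21258223 fragments in control and 18979423 to 20118169 in salt. One fragment in a gene of 1 kb was thus worth 0.0470 to 0.0531 FPKM. Fold changes are salt minus control on the log2(FPKM + 0.5) scale with their standard error (SE), from limma, over the 16638 genes that averaged 0.5 FPKM or more across the libraries; 24 members passed that filter and 11 did not. This scale understates the change of weak genes, so folds from fragments summed over the 3 libraries of each treatment are also given. Where control held no fragment, such a fold is a lower bound against 3 fragments over the control group. All 15 chloroplast marker genes fixed for leaf tissue (photosystem subunits) were above 1 FPKM in every library, and together they reached 5758 to 10341 FPKM in control but 476 to 2000 FPKM in salt. The FPKM values carry no scaling between libraries beyond that by total fragments. The median of all genes tested was -0.57 on the log2 scale, against which the folds below should be read.

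Together the members took little of the control transcriptome and more of the salt one. Their summed FPKM was 49.9, 47.3 and 52.8 in control replicates 1 to 3, which is 0.00608% to 0.00708% of all FPKM in a library. In salt replicates 1 to 3 it was 943, 1195 and 716, or 0.0999% to 0.161%. The 2 groups of sums were far apart, with the means 19.0-fold apart, and salt replicate 2 was the highest. A few models made up most of it: the 4 members with the highest salt mean held 77.8% to 91.2% of the sum in salt libraries.

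In 34 of the 35 members every salt library was above every control library. The exception was ClCG11G009360, a Ty3-gypsy retrotransposon protein. Of all genes tested, 17.7% had salt libraries above control in this way, and nothing is read from the difference because this contrast chose the members. By the limma fit at an adjusted p below 0.05, 20 of the 24 tested members were called higher in salt and 0 lower, where 13.6% of all genes tested were called higher; this count was set by the choice of members and is read as no result, the other genes of the list being called at 1666 of 1862 tested. Their median log2 fold change was 2.05 (0.77 to 7.14), beside 2.04 for the 1862 other tested genes of the same list. With every member included and those at 0 in control placed at their bound, the median log2 fold from summed fragments was 3.33, a 10.1-fold difference. No member was at 0 in a salt library, while 22 were at 0 in at least 1 control library and 12 in all 3.

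**Figure D1:**
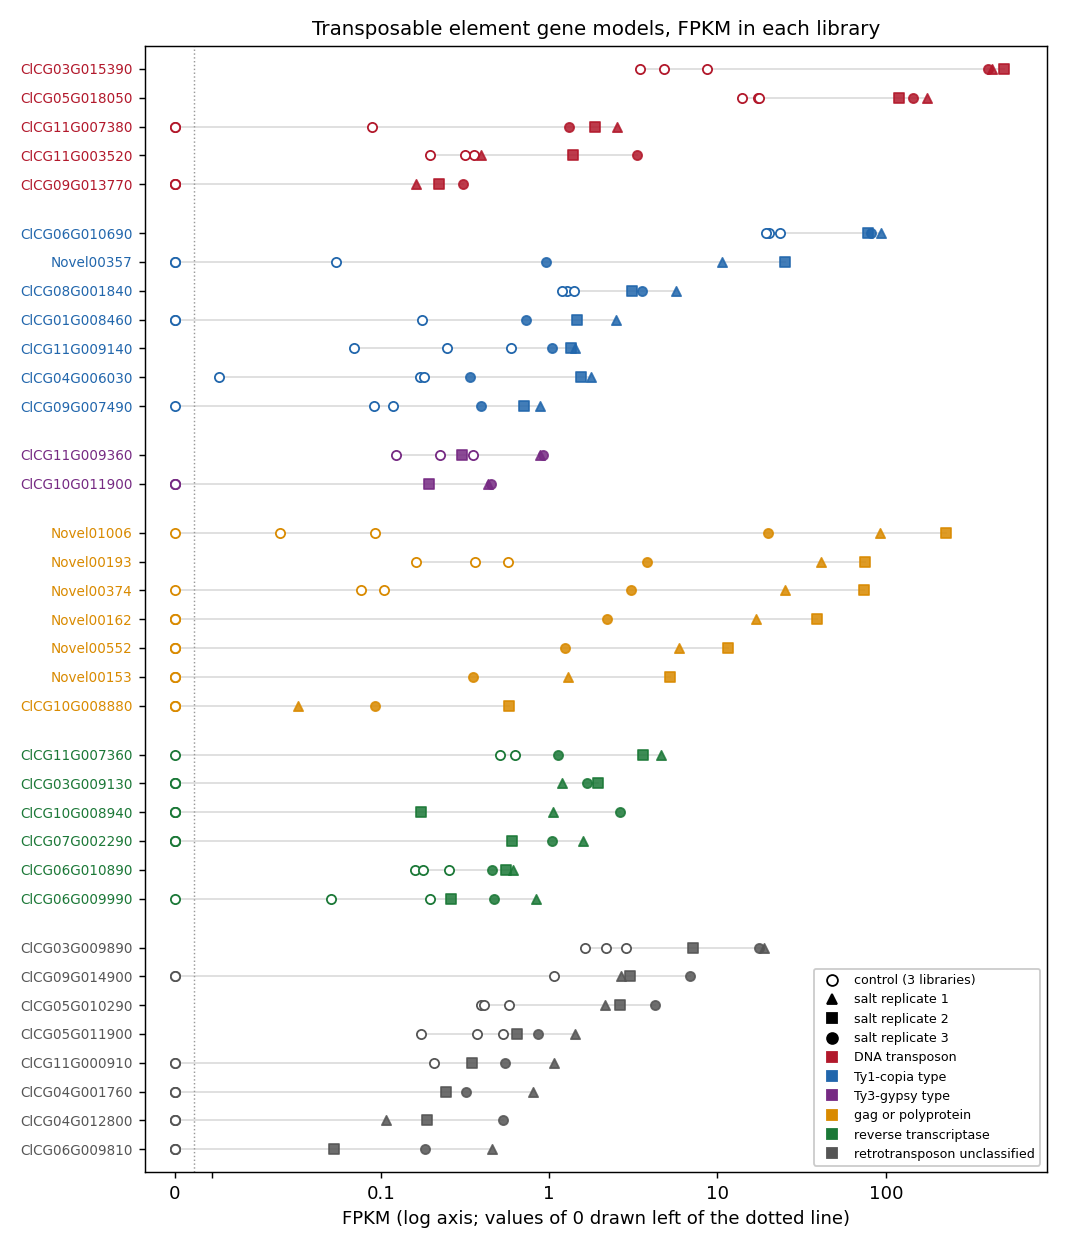
FPKM of each of the 35 members in each library on a log axis, grouped by class and ordered by salt mean; open circles are the 3 control libraries, filled triangles, squares and circles are salt replicates 1, 2 and 3, and values of 0 stand left of the dotted line. Salt symbols lie to the right of the open circles in 34 members, and in the 7 author-added models the square (salt replicate 2) is always the farthest right and the filled circle (salt replicate 3) the nearest to control.

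The strongest signal of all members came from a DNA transposon model. ClCG03G015390, described as a member of the PIF / Ping-Pong family of plant transposases, which cut and move PIF-type elements, measured 3.47, 4.82 and 8.64 FPKM in control and 426, 503 and 406 FPKM in salt. Its log2 fold change was 6.26 ± 0.32 (SE), and the salt libraries lay within 1.24-fold of each other. This single model held 42.1% to 56.8% of the summed FPKM of the members in salt.

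A second PIF model, ClCG05G018050, was already expressed in control, at 17.4, 14.1 and 17.6 FPKM, and stood at 175, 120 and 145 FPKM in salt. Its log2 fold change was 3.12 ± 0.23 (SE). The third, ClCG11G003520, measured 0.359, 0.315 and 0.197 FPKM in control and 0.392, 1.40 and 3.33 FPKM in salt, so salt replicate 1 sat just above the highest control and salt replicate 3 carried most of the difference (log2 fold change 1.24 ± 0.57). The 3 PIF models share 1 description and are near each other in length (1344 to 1479 bases), yet their salt means ran from 1.71 to 445 FPKM.

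The remaining DNA transposons were weak. ClCG11G007380, a hAT dimerisation domain protein (the domain through which hAT transposases pair), measured 0.0886, 0 and 0 FPKM in control and 2.52, 1.88 and 1.32 FPKM in salt, from 7 fragments in control against 420 in salt. The salt values were close together and well apart from control (log2 fold change 2.16 ± 0.40). The Mutator model ClCG09G013770 had no control fragment and 0.163 to 0.307 FPKM in salt, at least 12.2-fold higher.

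Among Ty1-copia models, the most abundant in both treatments was ClCG06G010690, a short model of 363 bases. It measured 20.2, 23.5 and 19.3 FPKM in control and 93.9, 78.7 and 81.9 FPKM in salt, with a log2 fold change of 1.99 ± 0.21. Both groups were tight, and this one model held most of the Ty1-copia sum of 21.0 to 25.2 FPKM in control. ClCG08G001840, a Ty2-F Gag-Pol polyprotein, measured 1.28, 1.19 and 1.41 FPKM in control and 5.65, 3.13 and 3.58 FPKM in salt (log2 fold change 1.33 ± 0.37). ClCG11G009140, a Ty1-PL Gag-Pol polyprotein, spread widely in control, at 0.594, 0.247 and 0.0696 FPKM, and was even in salt, at 1.42, 1.35 and 1.04 FPKM. Its log2 fold change was 1.19 ± 0.42.

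ClCG04G006030, another Ty2-F Gag-Pol polyprotein, measured 0.0110, 0.172 and 0.182 FPKM in control and 1.78, 1.56 and 0.340 FPKM in salt. Salt replicate 3 stayed within 2-fold of the highest control library here (log2 fold change 1.36 ± 0.51). ClCG01G008460 measured 0.176, 0 and 0 FPKM in control and 2.5, 1.46 and 0.726 FPKM in salt, from 3 fragments against 74, a ratio of 25.8 with an exact 95% counting interval of 8.48 to 128. ClCG09G007490, a second Ty1-PL polyprotein, stayed under 1 FPKM, with 14 fragments in control and 121 in salt. In all 6 reference models of this class, salt replicate 1 held the highest value, as it did in 7568 of the 16638 genes tested.

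The seventh Ty1-copia model was added by the authors and behaved otherwise. Novel00357, a copia-type reverse transcriptase-like protein, the enzyme that copies element RNA into DNA, measured 0.0545, 0 and 0 FPKM in control and 10.6, 25.3 and 0.955 FPKM in salt. It had 4 control fragments against 2496 in salt (log2 fold change 3.85 ± 0.94). Its salt values spanned 26.5-fold, the widest span of any member.

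The gag and polyprotein models, which encode the capsid protein with or without the pol enzymes, were nearly absent from control and held the second largest share of the members' sum in salt replicates 1 and 2. Novel01006, a gag protease polyprotein, measured 0.0923, 0 and 0.0254 FPKM in control and 92.1, 228 and 20.1 FPKM in salt, with 5 fragments against 13649. Its log2 fold change of 7.14 ± 0.77 was the highest of the tested members. Even its lowest salt library was far above its highest control library.

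A further 4, all author-added, were described as gag/pol protein. Novel00193 measured 0.573, 0.162 and 0.365 FPKM in control and 41.4, 74.9 and 3.79 FPKM in salt (log2 fold change 4.81 ± 0.95). Novel00374 measured 0.0762, 0 and 0.105 FPKM in control and 25.1, 74.5 and 3.07 FPKM in salt (5.09 ± 0.97). Both were high in salt replicate 2 and far lower in salt replicate 3. Novel00162 had no control fragment and 16.9, 39.1 and 2.2 FPKM in salt, at least 788-fold higher from 2264 salt fragments. Novel00552, the longest member at 5129 bases, likewise had no control fragment and 5.90, 11.6 and 1.25 FPKM in salt, at least 641-fold higher.

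Novel00153, described as a polyprotein, had no control fragment and 1.30, 5.20 and 0.353 FPKM in salt, at least 200-fold higher. The only reference model of this class, ClCG10G008880, a Retrotrans_gag protein, was far weaker, with no control fragment and 22 in salt, of which the highest level was 0.579 FPKM in salt replicate 2. The class sum was 0.162 to 0.741 FPKM in control and 183, 434 and 30.8 FPKM in salt replicates 1 to 3.

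**Figure D2:**
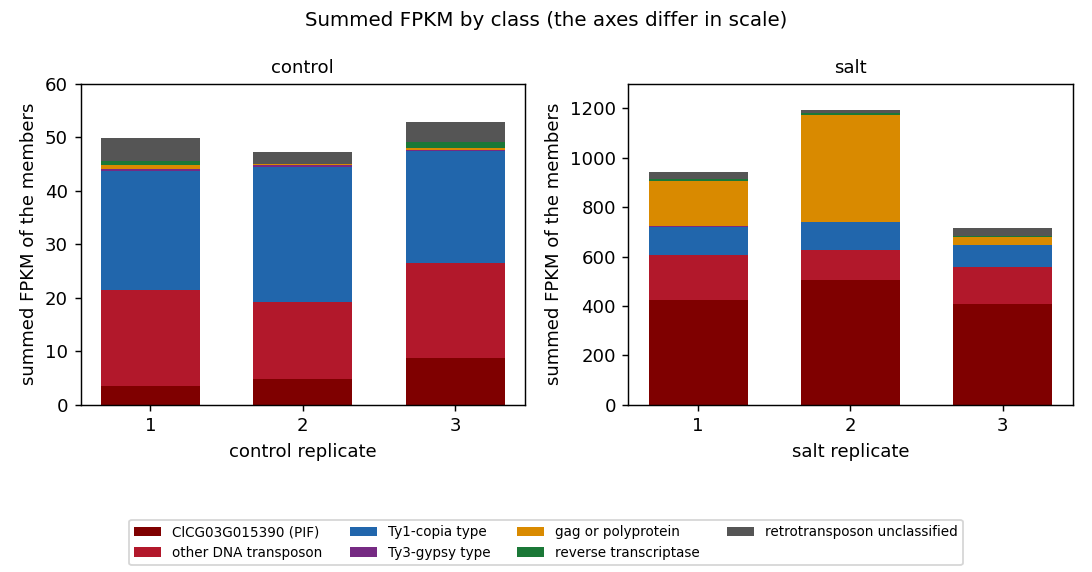
Summed FPKM of the members in each library, stacked by class, with the PIF model ClCG03G015390 apart from the other DNA transposons, on a far smaller scale in the control panel than in the salt panel. DNA transposons and Ty1-copia models hold most of each control bar, and the gag or polyprotein layer of the salt bars goes from 183 to 434 to 30.8 FPKM while the ClCG03G015390 layer stays between 406 and 503 FPKM.

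Reverse transcriptase models with no superfamily were low throughout, with a class sum of 0.159 to 1.01 FPKM in control and 7.17 to 9.92 FPKM in salt. ClCG11G007360 measured 0.511, 0 and 0.631 FPKM in control and 4.64, 3.64 and 1.13 FPKM in salt (log2 fold change 1.97 ± 0.57). ClCG03G009130 had no control fragment and 1.19, 1.94 and 1.69 FPKM in salt, at least 20.2-fold higher. ClCG07G002290 had no control fragment and 1.59, 0.603 and 1.04 FPKM in salt, at least 9.40-fold higher. Their salt libraries were within 4.09-fold of each other. ClCG10G008940, a model of 300 bases whose description adds ribonuclease H, the activity that removes the RNA template, had no control fragment and 1.05, 0.174 and 2.65 FPKM in salt. That is 23 fragments in all (log2 fold change 1.57 ± 0.59). ClCG06G009990 and ClCG06G010890 stayed under 1 FPKM in every library, with 18 and 25 fragments in control against 115 and 65 in salt.

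Of the 8 unclassified retrotransposon proteins, ClCG03G009890 was the most abundant. It measured 2.17, 1.65 and 2.87 FPKM in control and 19.0, 7.20 and 17.7 FPKM in salt (log2 fold change 2.38 ± 0.44). Salt replicate 2, the highest library for the author-added models, was its lowest in salt. ClCG09G014900 measured 1.07, 0 and 0 FPKM in control and 2.69, 3.01 and 6.85 FPKM in salt (2.57 ± 0.59), with 10 control fragments, all in replicate 1. ClCG05G010290 measured 0.395, 0.414 and 0.580 FPKM in control and 2.16, 2.66 and 4.24 FPKM in salt (1.83 ± 0.40), a span of 1.96-fold among the salt libraries.

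The other 5 had salt means under 1 FPKM. ClCG05G011900 showed the smallest difference of the tested members, from 53 fragments in control to 138 in salt (log2 fold change 0.77 ± 0.42). ClCG11G000910 had 7 fragments in control and 62 in salt. ClCG04G001760, ClCG04G012800 and ClCG06G009810 had none in control and 45, 32 and 40 in salt. No fragment in any control library was also the case for 1 of the 2 Ty3-gypsy models, ClCG10G011900, a Ty3-G Gag-Pol polyprotein with 51 fragments in salt, at least 17.7-fold higher. The other, ClCG11G009360, had 25 fragments in control and 71 in salt, and its salt replicate 2 at 0.303 FPKM fell below control replicate 2 at 0.355 FPKM. Over the 12 members with a salt mean under 1 FPKM, salt values ran from 0.0325 to 1.43 FPKM on 22 to 138 fragments, and 6 of them were at 0 in all of control.

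**Figure D3:**
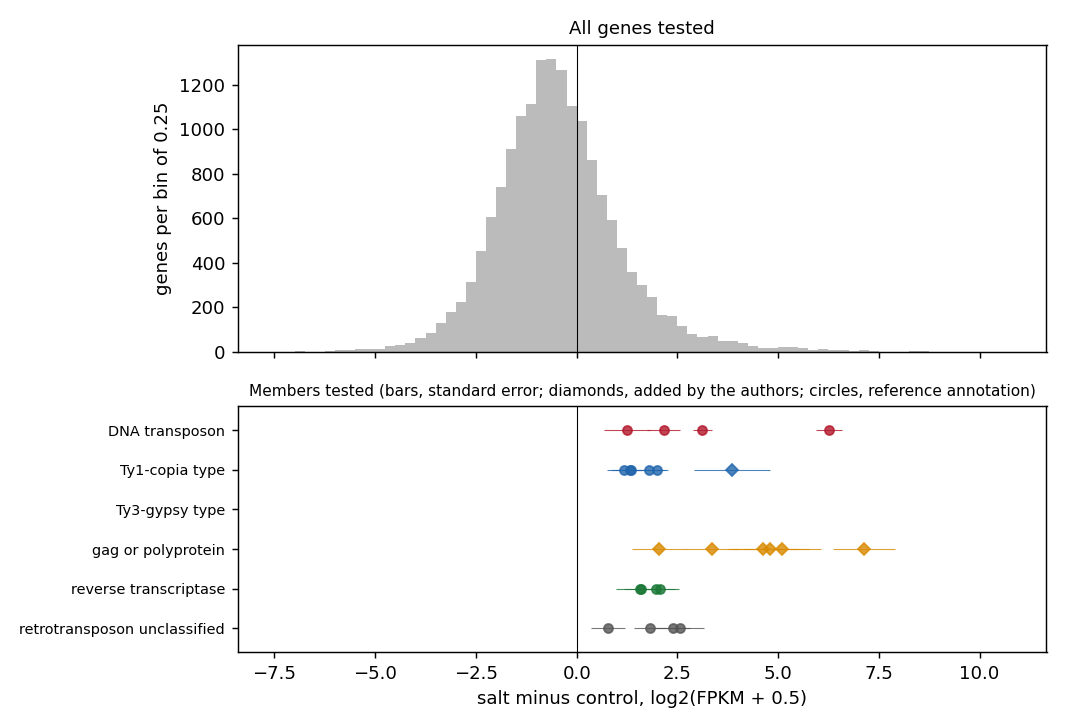
Distribution of the log2 fold change (salt minus control, log2(FPKM + 0.5)) over the 16638 genes tested, in bins of 0.25, above the values of the 24 tested members by class with their standard errors. The members lie from 0.77 to 7.14, right of the median of all genes at -0.57, as their selection from genes higher in salt entails, and the author-added models (diamonds) reach farthest and have the widest errors.

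Inside the set, members differed in how they varied among the salt libraries, a comparison that control values do not enter and that was chosen after its values were seen. In all 7 author-added members salt replicate 2 was highest, replicate 1 next and replicate 3 lowest. The ratio of replicate 2 to replicate 3 was 9.25 to 26.5 (median 17.7), and that of replicate 1 to replicate 3 was 3.69 to 11.1. The 7 profiles were nearly parallel, the ratio of replicate 2 to replicate 1 being 1.81 to 4.0. Summed over the 7, FPKM was 193, 459 and 31.7 in salt replicates 1 to 3 and 0.162 to 0.796 in control, so the lowest salt library was still far above control.

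Most reference members did not share this order. It was seen in 1 of the 28, the PIF model ClCG03G015390, whose replicates differed little. The number was 7 after median-ratio scaling of the libraries, and 5 after quantile normalization, which covered the 17 tested reference members. The ratio of replicate 2 to replicate 3 in the reference members was 0.0656 to 6.29 (median 0.756). The highest salt library was replicate 1 in 17 of them, replicate 3 in 8 and replicate 2 in 3. All genes tested were alike in this, with a median ratio of 0.803. Replicate 1 was highest in 7568 of those 16638 genes, replicate 3 in 5776 and replicate 2 in 3294. The sum of the reference members was nearly level, at 749, 736 and 684 FPKM in salt, and without ClCG03G015390 it was 324, 233 and 278 FPKM. The order of replicate 2, 1, 3 was found in 11.5% of all genes tested. It is a share over genes of the same libraries, not over independent samples, and no test was made.

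**Figure D4:**
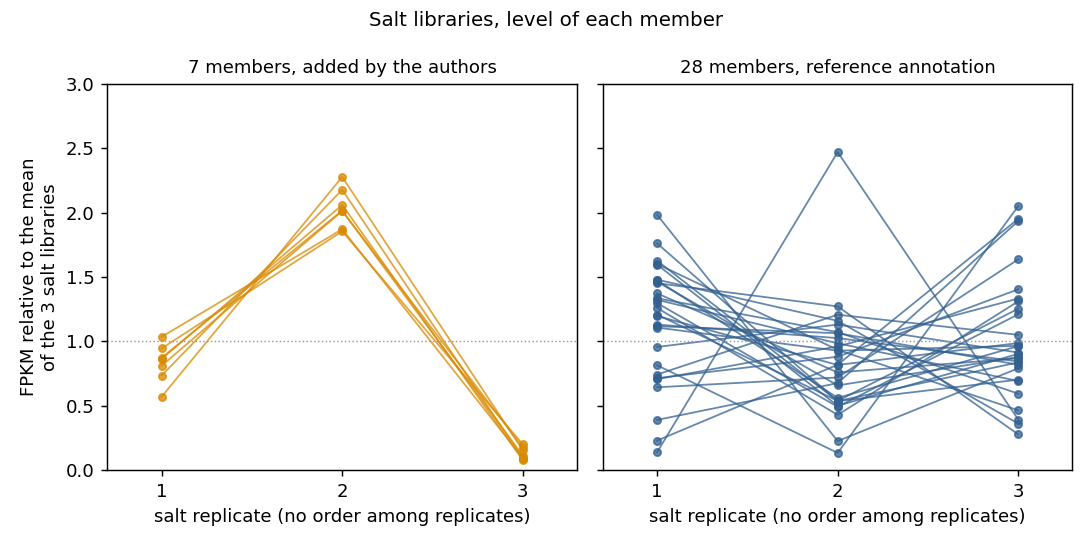
Level of each member in the 3 salt libraries relative to its own mean over them, with a line per member, for the 7 author-added members (left) and the 28 reference members (right); replicates have no order and lines only join the values of 1 member. All 7 author-added members peak in replicate 2 and lie lowest in replicate 3, whereas the reference members cross in every direction.

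The same order was more frequent among weak genes that appear in salt, whatever their description. Of 528 genes under 0.5 FPKM in the control mean and at 1 FPKM or more in the salt mean, 151 (28.6%) had it, made up of 58 of 120 author-added models (48.3%) and 93 of 408 reference models (22.8%). Within the distance that encloses the 7 members' own profiles, 31 of these 528 genes were found: the 7, another 19 author-added models and 5 reference genes, with no reference member among them. The pattern was thus shared with other author-added models and was not particular to those described as transposable elements. Leaf chloroplast markers also differed between the salt libraries, with a summed FPKM of 2000, 476 and 1561 in replicates 1 to 3. Salt replicate 2 was lowest in all 15 markers. The part of leaf condition in the pattern of the author-added members was not tested.

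The spread between replicates followed the same division. The SD of log2(FPKM + 0.5) among salt libraries had a median of 1.98 over the author-added members and 0.43 over the 17 tested reference members, against 0.47 over all genes tested. It was 0.85 over the other tested author-added models of the list, and 1.10 over genes with no control fragment and a salt mean of at least 1 FPKM. In control the medians were 0.09 over the author-added and 0.18 over the reference members, against 0.30 over all genes tested. These control medians are not read as steadiness, because values at 0 have no spread on this scale. Of all members, 12 were at 0 in every control library and 22 in at least 1. Genes of like level give a closer comparison. Over the 7182 tested genes with a mean between the quartiles of the tested members, the median SD was 0.37 in control and 0.55 in salt. Their median salt level was 2.98 FPKM, below the 19.4 FPKM of the author-added members. The steadiest members in salt were ClCG06G010890, ClCG06G010690, ClCG09G013770, ClCG03G015390 and ClCG11G009140, with SDs of 0.11 to 0.17, on a scale whose pseudocount damps the spread of members under 1 FPKM. For the author-added members, leaving out salt replicate 2 lowered the log2 fold change and leaving out salt replicate 3 raised it, as their order entails. For Novel01006 it went from 7.14 to 6.34 and 8.08, and for Novel00552 from 3.36 to 2.74 and 4.14. The other 4 that passed the filter in both settings moved in the same way, while Novel00153 fell under the filter without salt replicate 2 and was at 2.68 without salt replicate 3.

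All 28 reference members had a length divisible by 3, compared with 55.9% of reference models with a value. The share was 64.0% among the other reference genes of the list. It was 72.0% among all genes with no control fragment and a salt mean of at least 1 FPKM. The 28 ran from 300 to 4383 bases. The 7 author-added members were 2031 to 5129 bases long, and 3 of the 7 were divisible by 3. FPKM rested on uniquely mapped reads according to the study, so fragments that match several copies of an element were left out, and a copy that shares sequence with others cannot be given its own level with certainty.

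By the chromosome code in their identifiers, the reference members were spread over 10 of the 11 chromosomes, with 6 on chromosome 11, 4 on chromosome 6, 3 each on chromosomes 3, 4, 5, 9 and 10, and 1 each on chromosomes 1, 7 and 8. There was none on chromosome 2. In gene order, 21 of the 28 fell between the 25th and the 75th percentile of their chromosome, and 8 had another member within 20 identifiers, among them ClCG11G007360 and ClCG11G007380, a reverse transcriptase and a hAT model separated by 1 tested gene. Coordinates are not used here, since the table holds identifiers only, and the author-added models have no position in it.

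The genes next to the members moved in both directions. Of the 55 nearest tested neighbours, 11 (20%) were called higher in salt and 16 lower, where 13.6% of all genes tested were called higher and 5684 of 16638 lower. Their median log2 fold change was -0.11, above the median of all genes at -0.57, and the difference was not tested. Both neighbours were called higher for 2 members and neither for 18. Beside ClCG03G015390, the kinase family gene ClCG03G015380 was called higher, with a log2 fold change of 3.71 at a salt mean of 7.37 FPKM, while ClCG03G015400 on the other side was at -1.05. Beside ClCG05G018050 the neighbours were at -0.21 and -1.31. Beside ClCG05G010290, the myb domain gene ClCG05G010300 was at 6.09, and both neighbours of ClCG06G010690, ClCG06G010680 and ClCG06G010700, were called higher, at 2.64 and 1.48.

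A pair of host gene groups from the same list of salt-higher genes bears on transposable elements and was counted by description. Like the members, they were chosen by the study on these libraries, so their direction is no independent evidence. Of 10 genes described as small RNA silencing or chromatin proteins, not all of which act on elements, 9 were tested, 7 were called higher and 0 lower, beside 1666 of 1862 for the other genes of the list and 13.6% of all genes tested. The 2 most abundant were ClCG10G013560, described as a histone-lysine N-methyltransferase specific to H3 lysine-79, at 53.9 ± 6.4 (SD, n = 3) in control and 296 ± 147 FPKM in salt, and ClCG01G022760, a chromodomain helicase that remodels nucleosomes, at 17.1 ± 2.5 and 51.9 ± 5.8 FPKM. The dicer-like gene ClCG03G010510, whose family cuts double-stranded RNA into small RNAs, did not pass, with 0.99 ± 0.37 and 3.03 ± 1.42 FPKM.

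All 6 host genes with transposase-derived or gag-like domains were called higher, against the same shares. The most abundant were ClCG10G011590, a zinc knuckle protein, a nucleic acid binding fold also found in gag, at 13.6 ± 1.5 FPKM in control and 50.5 ± 14.4 FPKM in salt, and ClCG07G016630 of the FAR1 family, transcription factors that descend from Mutator-like transposases, at 14.9 ± 0.3 and 46.0 ± 6.6 FPKM. Their log2 fold changes, 1.82 ± 0.27 and 1.59 ± 0.22 (SE), were near the median of the reference members, 1.83, and well under that of the author-added members, 4.62. No difference between these groups was tested.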

How the data were processed

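RNA-seq libraries of 3 control and 3 salt-treated leaf samples were analysed from the single expression table of the series. The FPKM values were computed by the authors from uniquely mapped paired-end reads, against the Charleston Gray genome and annotation, and deposited without scaling between libraries beyond that by total fragments. The paper names Bowtie, TopHat, HTSeq and DESeq, the labels name fastp, HISAT2 2.1.0, featureCounts and DESeq2, and the table does not settle which of them made the values.

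Members were matched by words in the descriptions of the study's list of salt-responsive genes, held here in part. All members are named, with the value in every library from a salt mean of 1 FPKM upwards; members, gene lists and rules were chosen with earlier results of these data known. Whole fragments and gene lengths were solved from the FPKM steps and were whole, within 0.001 fragments or 1e-07 of the count, for 19557 of 19557 genes with a value. In a simulation of 6000 genes, the counts of every library were recovered for 99.0% of the genes with a count. Counting intervals and bounds cover counting error only.

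The log2(FPKM + 0.5) values of genes averaging 0.5 FPKM or more were fitted in R 4.3.3 by limma 3.58.1, with a mean-variance trend and Benjamini-Hochberg adjustment, and called at an adjusted p below 0.05. Same-numbered control and salt libraries deviated together weakly from their group means (correlations 0.175, 0.105 and 0.128 across genes, against -0.108 to -0.039 for other pairs). Neither the labels nor the paper state that a number pairs plants, and these correlations do not establish it. The fit without a block is therefore reported, with the replicate block as an alternative. In 16 alternatives the pseudocount, filter, scaling, variance model and block were changed and each library was left out. Scaling alternatives for the order of the salt libraries were added after seeing the data. Figures were drawn with matplotlib 3.10.9 in Python 3.11.15. The authors' own comparison columns in their list, fold changes and p-values, were not used.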

Additional observations from a re-analysis of the deposited data

How the results depend on the processing

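The 24 tested members kept a log2 fold change above 0 in all 368 values of the 16 alternatives, and 44 of these values moved by more than the spread between replicates. The sign was set by the choice of members as higher in salt on these same libraries and is read as no result. The number of members called was likewise set by their choice, and the share of all genes tested that were called higher is given beside it. As reported, 20 of 24 tested members were called (13.6% of all genes). With a filter at a mean of 1 FPKM it was 15 of 15 (14.1% of all genes), and with no filter 27 of 35 (11.6%). With voom weights on fragments it was 17 of 24 (13.3% of all genes). Novel00162, Novel00193, Novel00357 and Novel00374 lost their calls there, at higher log2 fold changes of 6.10 to 9.85. After median-ratio scaling it was 21 (22.6% of all genes). With the replicate block it was 19, where 2279 genes in all (13.7%) were called higher. The block changed 1 call among the members, ClCG11G009140. Without each library in turn the number of members called was 15 to 19, of 21 to 25 tested, where 9.79% to 12.7% of all genes tested were called higher. ClCG11G009140 was not called whichever of the 6 was left out, Novel00153 for 5 of them, and ClCG01G008460, ClCG07G002290, ClCG08G001840 and ClCG11G007360 for 2 or 3. Some of these were not tested, being under the filter. This held for ClCG07G002290 without salt replicate 1 or 3, ClCG01G008460 without salt replicate 1 and Novel00153 without salt replicate 2. The median log2 fold change of the members, 2.05, moved with the pseudocount (3.44 at 0.1 FPKM, 1.49 at 1 FPKM), with the filter (1.61 with none, 3.12 at a mean of 1 FPKM), with voom (4.48), with median-ratio scaling (2.34) and with quantile normalization (2.42). Without single libraries it was 2.06 to 2.27.

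Scaling moved the counts over all genes: 2266 were called higher and 5684 lower as deposited, 3740 and 3460 after median-ratio scaling, and 3602 and 3809 after quantile normalization, since both scalings move the median of all genes from -0.57 to -0.03 and -0.10. From voom on the fragments they were 2218 and 5706. Leaving out single libraries gave 1624 to 2113 higher. The log2 ratio of summed FPKM was 4.25, 4.88 after median-ratio scaling and 4.05 to 4.42 without single libraries. Members with salt above control in every library were 34 of 35 as deposited, 34 to 35 under the other settings on all members, and 24 of the 24 tested after quantile normalization, which covered tested genes. The choice of members set these counts too, and 17.7% of all genes tested had this as deposited. All 7 author-added members kept the order of salt replicates 2, 1, 3 under every scaling tried. Reference members with that order numbered 1 as deposited, 7 after median-ratio scaling and 5 of the 17 tested after quantile normalization. The absence of control fragments limits the folds of 12 members to bounds.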

Other observations

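Among the 24 genes outside the members whose salt profile lay as near to that of the author-added members, 14 were author-added models with no description. They were chosen after their values were seen. The highest was Novel00090, at 0.967, 0 and 0 FPKM in control and 225, 604 and 38.4 FPKM in salt replicates 1 to 3, and Novel00861, with no control fragment, stood at 122, 365 and 25.6 FPKM. The 5 reference genes with this profile were described as a calmodulin binding protein (ClCG00G005060), a DS synthase (ClCG09G022130), a 6-phosphogluconolactonase (ClCG01G000180), a basic helix-loop-helix factor (ClCG10G000800) and a jasmonate ZIM domain protein (ClCG01G024700). ClCG10G000800 was the most abundant of these, at 49.4, 115 and 10.7 FPKM in salt.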
